A study of Bos taurus with 8 samples.

Results

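The genes described here are 8 enzymes of cholesterol synthesis, HMGCS1, IDI1, FDFT1, SQLE, LSS, CYP51A1, NSDHL and DHCR7, measured in the 2 tissues of the bovine blastocyst. They were proposed under the heading of cholesterol synthesis and uptake, but all 8 act in synthesis and none in uptake. Every probe of the array whose platform annotation carried one of these symbols was taken. This gave 15 of the 43794 probes on the array, and 8 of the 15229 gene symbols that the annotation names. HMGCS1 had 4 probes, CYP51A1 had 3, FDFT1 and NSDHL had a pair each, and IDI1, SQLE, LSS and DHCR7 had 1 each.

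RNA came from pools of inner cell mass (ICM, the cells that give rise to the embryo proper) and of trophectoderm (TE, the outer epithelium that contributes to the placenta), separated by microsurgery and immunosurgery from expanded blastocysts. The blastocysts developed in vivo in superovulated Holstein cows and were flushed at day 7.5 post insemination. Each of the 4 pairs of pools was hybridised on a pair of 2-colour arrays, once with ICM in Cy5 and once with ICM in Cy3. The sources used here do not say whether each pool drew on its own cows, so the p-values measure the spread between the 4 pool pairs.

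The direction given by the dye labels was opposite to that of the study, so each RNA is called here by its label, as RNA labelled ICM or labelled TE. NANOG, a pluripotency factor of the epiblast, was at -3.50 on the log2 scale, RNA labelled ICM over RNA labelled TE (adjusted p = 0.00317, limma), lower on 8 of 8 arrays. POU5F1 was at -0.84 and SOX2 at -0.45. Of the marker lists, 7 of 8 epiblast and 3 of 5 measured hypoblast genes were called lower there. The trophoblast factors CDX2 (0.48), GATA3 (0.82) and TFAP2A (2.05) were higher with the ICM label, as were 11 of 12 trophoblast markers. The summed normalised intensity of the trophoblast list was 163000 to 172000 in the RNA labelled ICM and 84800 to 97600 in the RNA labelled TE, that of the epiblast list was 11800 to 14900 with the ICM label and 32600 to 50000 with the TE label, and that of the hypoblast list 4330 to 8780 with the ICM label and 23300 to 29600 with the TE label. Each direction below is tied to the labels in the same way, and with the labels turned every sign would turn. By RT-qPCR the paper reported NANOG higher in ICM and GATA2, a gene of the trophoblast list, higher in TE, and no difference for DNMT3A and HNF4A. Of 14 leukocyte, erythrocyte and endometrium markers measured, 0 were called by limma, and 1 (MUC1, 0.45, named after its value was seen) had an unadjusted p under 0.05. Between 54.3% and 65.6% of probes per channel exceeded the background limit, set at the mean plus 2 SD of 153 negative control spots. Of the markers just named by cell type, 1 leukocyte and 3 endometrium markers exceeded it on no channel, so a difference in these could not be seen.

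Cholesterol is built from acetyl-CoA through mevalonate and isoprenoid units to squalene, which is oxidised, closed into lanosterol and then trimmed and reduced. When membrane sterol is low, SREBP transcription factors escape from the endoplasmic reticulum and raise transcription of most of these enzymes. In embryos cholesterol serves as membrane material for dividing cells and is attached to hedgehog ligands.

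Of the 15 probes, 8 were called higher in the RNA labelled ICM at an adjusted p of 0.05 or less, against 5.57% of all probes, and 0 were called lower, against 5.19% of all probes (limma, Benjamini-Hochberg over all probes; 0 of the 15 were lower at an unadjusted p under 0.05). These are bulk pools, in which fewer cells of a type and less RNA per cell cannot be told apart, and the trophoblast and epiblast marker lists given above moved between the same RNAs; their part in the result was not tested. Counted by gene, with each gene taken at its probe of highest mean intensity, 6 of the 8 enzymes were called higher, against 8.69% of all named genes. The called enzymes were HMGCS1, IDI1, FDFT1, CYP51A1, NSDHL and DHCR7, and those not called were SQLE and LSS. The median log2 difference was 0.93 over the 8 genes and 0.56 over the 15 probes, against 0.01 over all probes. The 8 genes were chosen with earlier results of these data known. At the same adjusted p with a fold of at least 2, 4 of the 15 probes passed, against 0.865% of all probes, and they belonged to HMGCS1, FDFT1, CYP51A1 and NSDHL. At an adjusted p of 0.01 or less these 4 probes passed as well, against 1.92% of all probes. Among the 17222 probes above the background limit on all 16 channels, 13.2% were called higher, and 7 of the 11 member probes of that kind were.

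**Figure D1:**
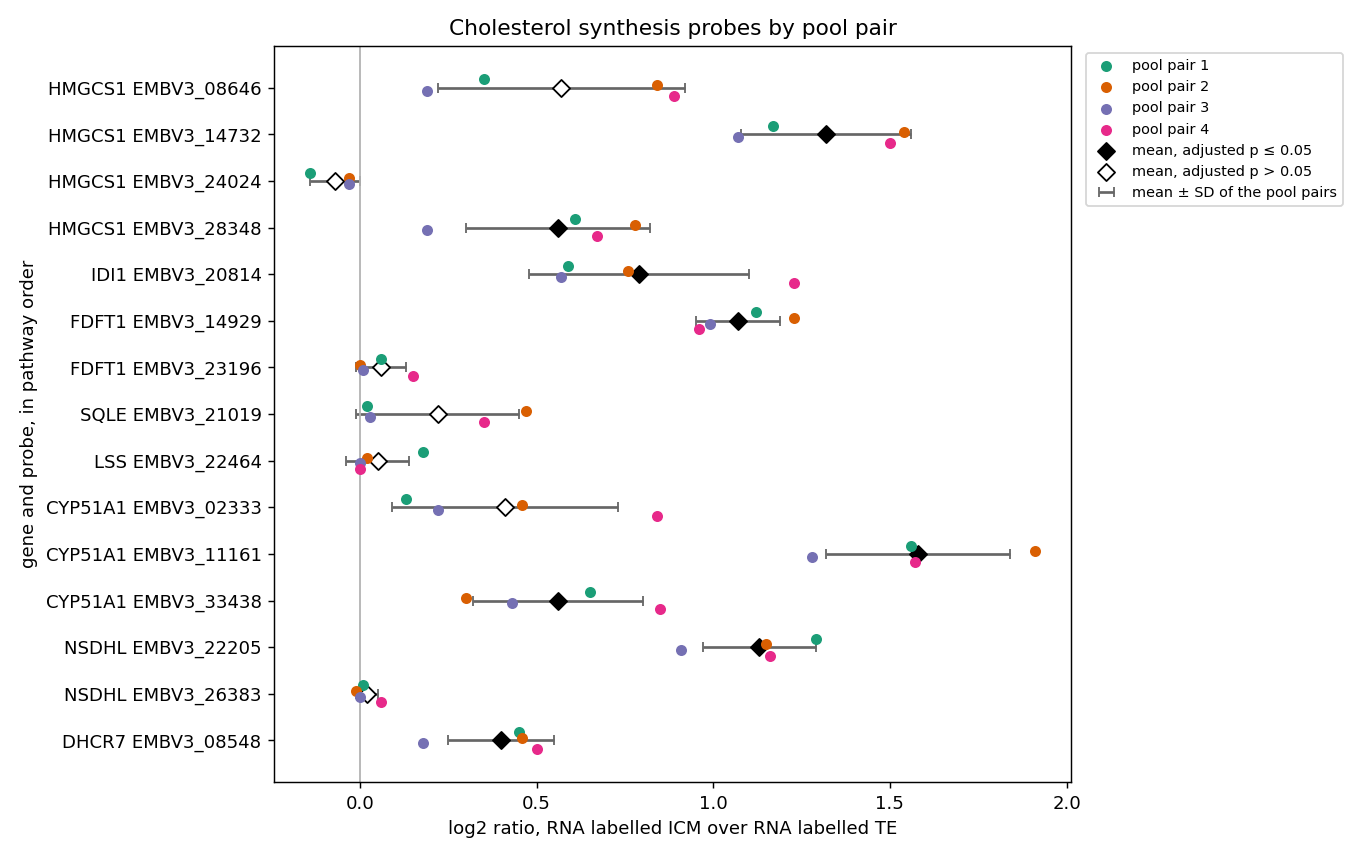
Log2 ratio of the RNA labelled ICM over that labelled TE (horizontal axis) for each of the 15 probes, from the first to the last step of the pathway. Coloured points are the 4 pool pairs, each the mean of its dye-swapped arrays (3 pairs for HMGCS1 EMBV3_24024); diamonds are means, filled where the adjusted p was 0.05 or less, and bars are ± 1 SD. One probe each of CYP51A1, HMGCS1, NSDHL and FDFT1 stands near or above 1 in all pairs, while HMGCS1 EMBV3_24024 and NSDHL EMBV3_26383, which exceeded the background limit on no channel, stand near 0.

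HMGCS1, the cytosolic synthase that makes HMG-CoA from acetyl-CoA units, stands at the entry of the pathway. Its brightest probe, EMBV3_14732, had normalised log2 intensities of 13.36, 12.79, 12.74 and 13.46 in the RNA labelled ICM of pool pairs 1 to 4, against 12.19, 11.25, 11.67 and 11.96 in the RNA labelled TE. Every pool labelled ICM was above every pool labelled TE, with no overlap. Before normalisation the same spots read between 6530 and 11800 intensity units in the channels labelled ICM and between 2310 and 4780 in those labelled TE. The log2 ratios of the pairs were 1.17, 1.54, 1.07 and 1.50, with a mean of 1.32 ± 0.24 (SD, n = 4; SE 0.10), or 2.49-fold (adjusted p = 0.00473, limma). It was higher on 8 of 8 arrays, and 0.306% of all probes had a larger ratio.

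The other HMGCS1 probes were dimmer and had smaller ratios. EMBV3_28348 had log2 ratios of 0.61, 0.78, 0.19 and 0.67, with a mean of 0.56 (SE 0.11, adjusted p = 0.0412, limma). EMBV3_08646 had 0.35, 0.84, 0.19 and 0.89, with a mean of 0.57 (SE 0.14, adjusted p = 0.0863, limma), and was not called. With all 8 arrays and the replicate as a block its adjusted p was 0.00791 (limma). That fit estimated a correlation of 0.0356 within a replicate number, so it counted the dye-swapped arrays of a pair almost as separate replicates. EMBV3_28348 and EMBV3_08646 were higher on 8 of 8 arrays, and in both pool pair 3 had the smallest ratio. EMBV3_24024 exceeded the background limit on none of the channels of either label and is given no fold, and its fit used 3 pool pairs because a spot of pair 4 was marked as ignored by the extraction software. The call of EMBV3_28348 was lost without pool pair 1, 2 or 4 (adjusted p = 0.111, 0.127 and 0.163).

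IDI1 isomerises isopentenyl diphosphate, so that isoprenoid units can be joined. Its probe EMBV3_20814 had log2 intensities of 11.15, 10.64, 10.40 and 11.36 in the RNA labelled ICM, against 10.56, 9.88, 9.83 and 10.13 in the RNA labelled TE. Within each pair the RNA labelled ICM was higher, but across pairs the labels overlapped, since pool 3 labelled ICM was below pool 1 labelled TE. The ratios were 0.59, 0.76, 0.57 and 1.23, with a mean of 0.79 ± 0.31 (SD, n = 4; SE 0.12), or 1.73-fold (adjusted p = 0.0266, limma). Pool pair 4 was the highest of the 4 in this ratio. The call was lost without pool pair 2 (adjusted p = 0.0962) and without pool pair 3 (0.0707).

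FDFT1, squalene synthase, commits isoprenoids to sterols. Probe EMBV3_14929 read 11.80, 11.50, 11.67 and 11.68 in the RNA labelled ICM, against 10.69, 10.28, 10.69 and 10.72 in the RNA labelled TE, in log2 intensity. The labels did not overlap, and the ratios of 1.12, 1.23, 0.99 and 0.96 had the smallest SD among the 4 members past a fold of 2. Their mean was 1.07 ± 0.12 (SD, n = 4; SE 0.05), or 2.10-fold (adjusted p = 0.00262, limma), higher on 8 of 8 arrays. The second FDFT1 probe, EMBV3_23196, exceeded the background limit on all channels but had ratios of 0.06, 0.00, 0.01 and 0.15 (mean 0.06, 95% interval -0.03 to 0.14, adjusted p = 0.455, limma). This probe was dim, with raw readings of 162 to 375 in the channels labelled ICM and 129 to 305 in those labelled TE. EMBV3_14929 read 2800 to 3830 and 1150 to 1790. On the array of pool pair 3 with ICM in Cy3, EMBV3_23196 read 244 in the channel labelled ICM, against a limit of 218. The probes of FDFT1 therefore gave different ratios, but the second read close to the limit. Which transcript parts they read was not analysed here.

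SQLE, squalene epoxidase, is an oxygen-dependent and rate-limiting step. Its only probe, EMBV3_21019, was bright, with log2 intensities of 11.48, 11.34, 10.96 and 11.78 in the RNA labelled ICM and 11.46, 10.88, 10.93 and 11.44 in the RNA labelled TE. The labels overlapped over most of their range. The ratios were 0.02, 0.47, 0.03 and 0.35, near 0 in pool pairs 1 and 3, with a mean of 0.22 ± 0.23 (SD, n = 4; SE 0.09). This did not pass (adjusted p = 0.279, limma), and the 95% interval ran from -0.03 to 0.46. The RNA labelled ICM was higher on 7 of 8 arrays.

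LSS, lanosterol synthase, closes the sterol rings. Its probe EMBV3_22464 exceeded the background limit on 2 of 8 channels labelled ICM and on 0 of 8 labelled TE, so it was not well above background in the RNA labelled TE and is given no fold (adjusted p of the fit = 0.621, limma). The log2 intensities were 8.04, 7.87, 7.86 and 7.89 in the RNA labelled ICM and 7.86, 7.85, 7.86 and 7.89 in the RNA labelled TE. Only pool pair 1 labelled ICM stood above the rest, and a difference was not detectable at this signal.

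CYP51A1, the demethylase that acts on lanosterol, had the largest ratio of the 8 enzymes. Probe EMBV3_11161 had log2 intensities of 13.03, 12.82, 12.35 and 13.62 in the RNA labelled ICM, against 11.47, 10.91, 11.07 and 12.04 in the RNA labelled TE. All pools labelled ICM were above all pools labelled TE. The raw readings, 4780 to 14000 in the channels labelled ICM and 1790 to 4850 in those labelled TE, only touched at their ends. The ratios were 1.56, 1.91, 1.28 and 1.57, with a mean of 1.58 ± 0.26 (SD, n = 4; SE 0.11), or 2.99-fold (adjusted p = 0.00401, limma). It was higher on 8 of 8 arrays, and 0.116% of all probes had a larger ratio.

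The remaining CYP51A1 probes were dimmer. EMBV3_33438 had ratios of 0.65, 0.30, 0.43 and 0.85 (mean 0.56, SE 0.10, adjusted p = 0.0369, limma), and its labels did not overlap. Its call was lost without any 1 of the pool pairs (adjusted p = 0.053 to 0.103). EMBV3_02333 had ratios of 0.13, 0.46, 0.22 and 0.84 (mean 0.41, SE 0.13, adjusted p = 0.149, limma) and was not called. With the replicate block, which counted the arrays of a pair almost as separate replicates, its adjusted p was 0.0185 (limma). Both probes were higher in the RNA labelled ICM on 8 of 8 arrays.

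NSDHL, a sterol dehydrogenase that works beside MSMO1 in removing methyl groups from the ring, read 10.87, 10.75, 11.06 and 11.40 in the RNA labelled ICM by probe EMBV3_22205, against 9.58, 9.60, 10.15 and 10.24 in the RNA labelled TE, in log2 intensity. The labels did not overlap. The ratios were 1.29, 1.15, 0.91 and 1.16, with a mean of 1.13 ± 0.16 (SD, n = 4; SE 0.07), or 2.18-fold (adjusted p = 0.00318, limma), higher on 8 of 8 arrays. Its other probe, EMBV3_26383, exceeded the background limit on no channel of either label and is given no fold.

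DHCR7, the reductase that makes cholesterol from its dehydro precursor, was dim but above the limit on all 16 channels. Probe EMBV3_08548 had log2 intensities of 8.72, 8.84, 8.64 and 8.76 in the RNA labelled ICM, against 8.28, 8.38, 8.46 and 8.27 in the RNA labelled TE. The labels did not overlap, although pool pair 3 brought them close. The ratios were 0.45, 0.46, 0.18 and 0.50, with a mean of 0.40 ± 0.15 (SD, n = 4; SE 0.06), or 1.32-fold (adjusted p = 0.0255, limma). The call was lost without pool pair 1, 2 or 4 (adjusted p = 0.0745, 0.101 and 0.106).

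**Figure D2:**
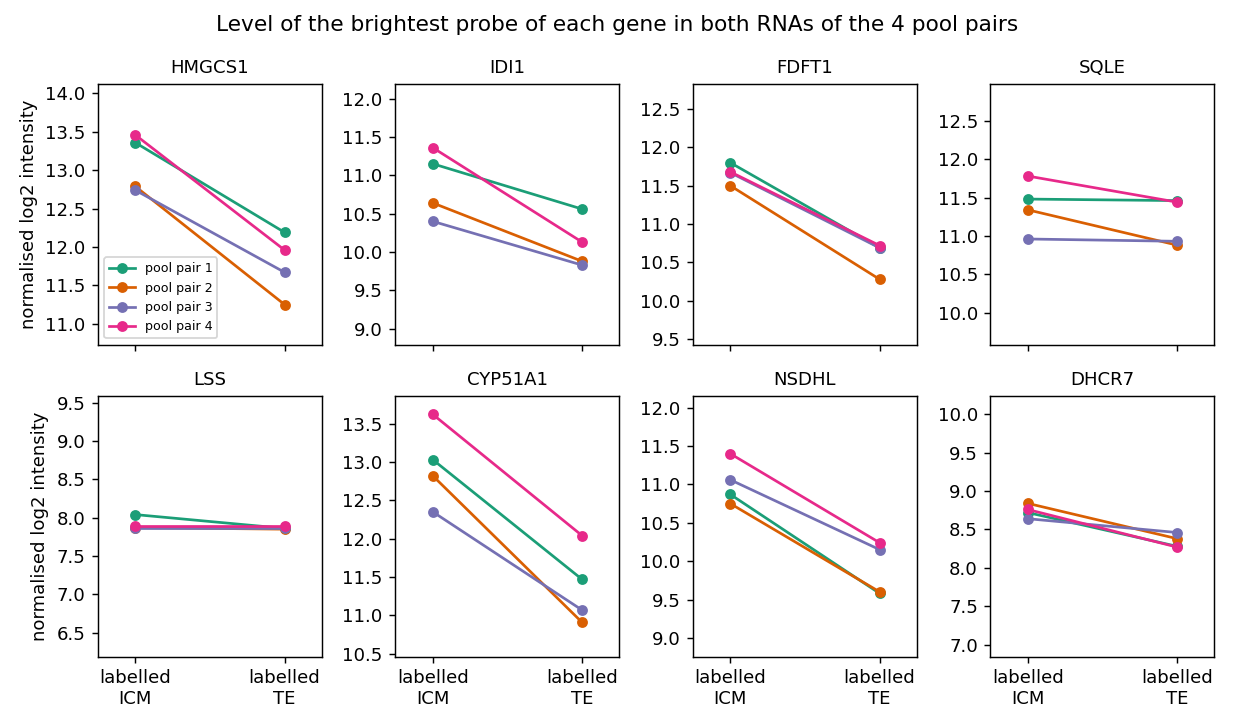
Normalised log2 intensity (vertical axis) of the brightest probe of each of the 8 enzymes, with the RNA labelled ICM on the left and the RNA labelled TE on the right of each panel. Each line joins the RNAs of 1 pool pair and all panels span the same number of log2 units. The lines slope down from left to right in all 4 pairs for HMGCS1, IDI1, FDFT1, CYP51A1, NSDHL and DHCR7, are nearly flat in pairs 1 and 3 for SQLE, and are near the background for LSS.

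By size of the ratio the 7 enzymes whose brightest probe exceeded the background limit on all 16 channels ran CYP51A1 (1.58), HMGCS1 (1.32), NSDHL (1.13), FDFT1 (1.07), IDI1 (0.79), DHCR7 (0.40) and SQLE (0.22), which is not their order in the pathway. The 95% intervals overlapped in all 6 pairs of neighbours in this order, and differences between enzymes were not tested. By the brightest probes, the interval of FDFT1 (0.93 to 1.22) lay wholly above that of SQLE (-0.03 to 0.46), the step that follows it. That of CYP51A1 (1.30 to 1.86), further down the pathway, lay above SQLE too. The dimmer probes did not show this. The intervals of FDFT1 EMBV3_23196 (-0.03 to 0.14) and of CYP51A1 EMBV3_02333 (0.07 to 0.75) and EMBV3_33438 (0.29 to 0.82) overlapped that of SQLE. LSS has no place in this order, since its probe was not well above background.

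The pools in which these 7 enzymes were highest or lowest were counted beside the 17222 probes above the limit on all 16 channels. In the RNA labelled ICM, 5 of the 7 had their highest level in pool 4, against 18% of those probes, and 5 had their lowest in pool 3, against 16%. In the RNA labelled TE, 3 had their highest level in pool 4, 3 in pool 1 and 1 in pool 3, and 4 had their lowest in pool 2, against 23.3%. The ratio was highest in pool pair 2 for 4 of the 7, against 23.4%, and lowest in pool pair 3 for 5, against 17.3%. The median ratio over the 7 enzymes was 1.12, 1.15, 0.91 and 1.16 in pool pairs 1 to 4, while that over all probes was 0.01 or 0 in each. The enzymes share arrays and pools, so their values are not independent, and these counts were not tested.

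Counted without a test, 7 of the 8 enzymes were higher in the RNA labelled ICM in every pool pair and 6 were higher on 8 of 8 arrays. By probe, 10 of 15 were higher on 8 of 8 arrays, against 7.98% of all probes. The levels of the labels did not overlap for 7 of the 15 probes with the RNA labelled ICM on top, against 6.32% of all probes.

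In the 4 enzymes with several probes, the brightest probe had the largest ratio in 4 of 4. For NSDHL this says nothing, since its only other probe exceeded the background limit on no channel. The ratio of a dim probe depended on how the background was treated. An offset added after background correction pulls low signals together, but lowering it from 50 to 10 changed these ratios only in part. With an offset of 10, EMBV3_28348 of HMGCS1 was at 0.64, EMBV3_02333 of CYP51A1 at 0.46 and DHCR7 at 0.45. Plain subtraction moved them further, and the part of each step was not tested. With plain subtraction EMBV3_28348 of HMGCS1 was at 0.89 in place of 0.56, EMBV3_02333 of CYP51A1 at 0.64 in place of 0.41, and DHCR7 at 0.60 in place of 0.40. The bright probes of HMGCS1 (1.35), FDFT1 (1.12), CYP51A1 (1.62) and NSDHL (1.21) differed little from their values above. FDFT1 EMBV3_23196 stayed low, at 0.13, and SQLE was at 0.22 both ways.

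**Figure D3:**
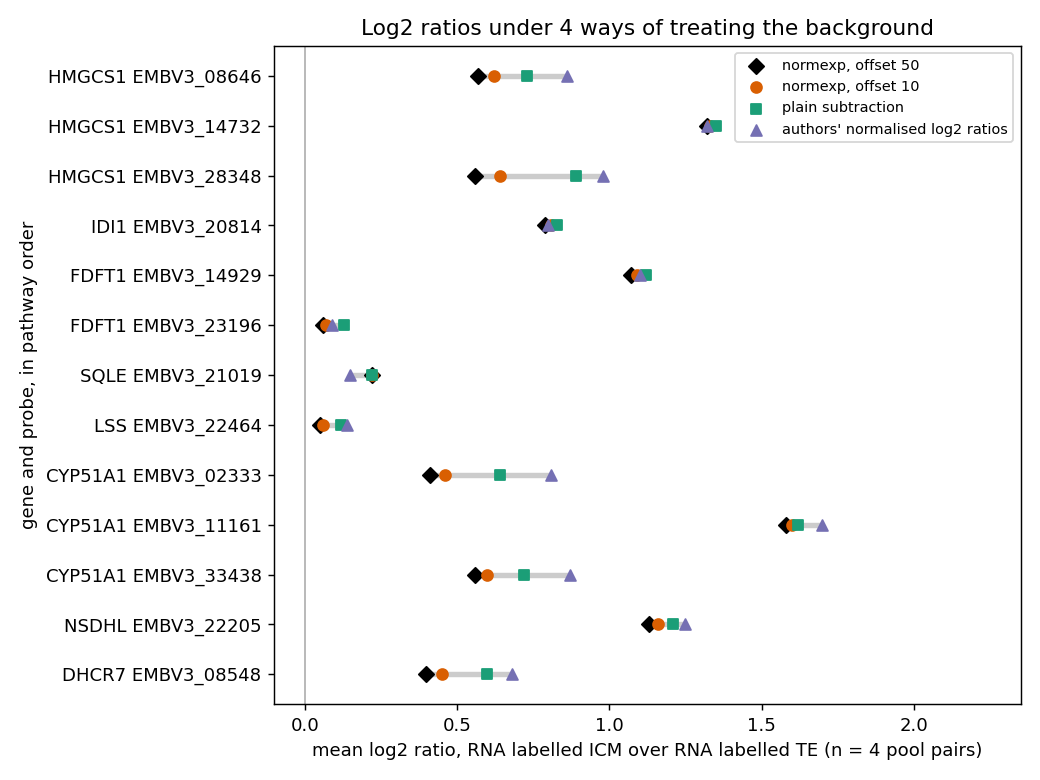
Mean log2 ratio of the RNA labelled ICM over that labelled TE (horizontal axis, n = 4 pool pairs) for the 13 probes above the background limit on at least 1 channel. Symbols are normexp with an offset of 50 (as reported), normexp with an offset of 10, plain subtraction, and the normalised log2 ratios that the authors deposited; the grey bar spans the 4 values. The bars are short for bright probes such as HMGCS1 EMBV3_14732 (1.32 to 1.35) and longer for dim ones such as HMGCS1 EMBV3_28348 (0.56 to 0.98).

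The dye orientation was the same for all 4 arrays of a slide, so slide and dye cannot be told apart, and each orientation is a comparison within a single slide. With ICM in Cy5, CYP51A1 was at 1.57, HMGCS1 at 1.38, FDFT1 at 1.16 and NSDHL at 1.08. With ICM in Cy3 the same probes were at 1.60, 1.26, 0.99 and 1.18, and all 4 were called within each orientation. IDI1 (0.83 and 0.75) and DHCR7 (0.41 and 0.39) were called with ICM in Cy5 but not with ICM in Cy3 (adjusted p = 0.0659 and 0.0643, limma). SQLE was at 0.12 with ICM in Cy5 and 0.32 with ICM in Cy3. The difference between orientations, tested over the 4 pool pairs, passed for 0 of the 15 probes by limma (4 at an unadjusted p under 0.05), against 20.9% of all probes. With plain subtraction it passed for 4 probes, both of FDFT1, that of LSS and EMBV3_26383 of NSDHL.

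**Figure D4:**
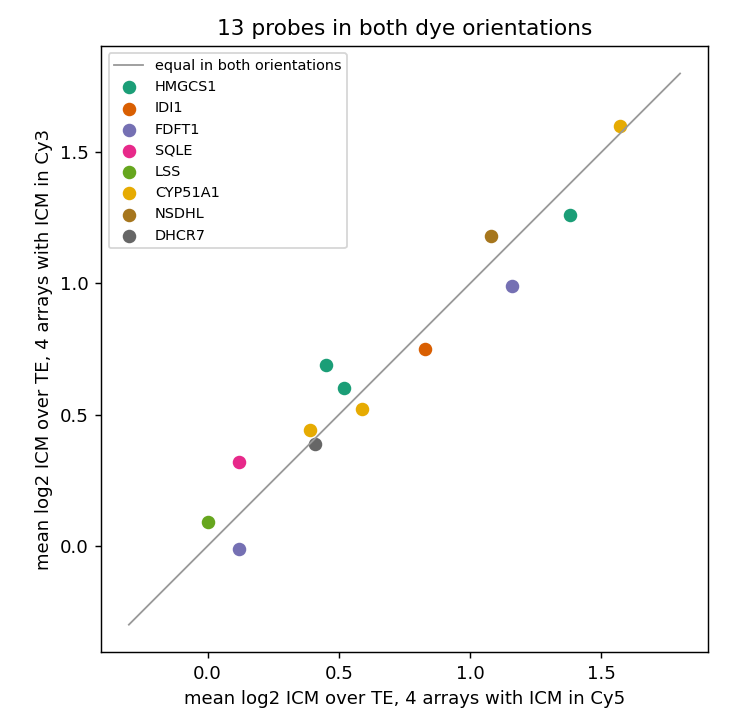
Mean log2 ratio of the RNA labelled ICM over that labelled TE on the 4 arrays with ICM in Cy5 (horizontal axis) and on those with ICM in Cy3 (vertical axis), for the 13 probes above the background limit on at least 1 channel, coloured by gene. The line marks equal values. The points lie along it, and SQLE (0.12 and 0.32) and HMGCS1 EMBV3_08646 (0.45 and 0.69) are among the farthest from it.

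Other genes of cholesterol synthesis, sensing, uptake, release and efflux were read in the same fit from lists of 52 genes, of which 43 matched a symbol of the platform annotation. The rest matched none, which does not show that the array lacks probes for them. By the brightest probe of each gene, 9 of the 43 were called higher and 1 lower, against 8.69% and 6.84% of all named genes, with a median log2 ratio of 0.12 (limma). With the replicate as a block on all 8 arrays, 20 of the 43 were called (17 higher and 3 lower), in a fit that called 18.2% of all probes, against 10.8% in the fit reported here. The block fit counted the dye-swapped arrays of a pair almost as separate replicates. Among the other synthesis genes, 4 of 12 measured were higher and 0 lower, with a median of 0.20. Among the genes of sensing, uptake, release and efflux, 5 of 31 were higher and 1 lower, with a median of 0.09.

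Of the other mevalonate and isoprenoid genes 3 of 6 were higher. FDPS, which builds the farnesyl diphosphate that FDFT1 uses, had ratios of 0.61, 0.92, 0.91 and 0.96 in pool pairs 1 to 4 (mean 0.85, SE 0.07, adjusted p = 0.00566, limma), and 3 of its 4 probes were called. MVK, the kinase that phosphorylates mevalonate, had 0.47, 0.50, 0.35 and 0.38 (mean 0.42, SE 0.03, adjusted p = 0.00545, limma), with 1 of 3 probes called. ACAT2, the thiolase that supplies HMGCS1 with acetoacetyl-CoA, was at 0.66 (SE 0.08, adjusted p = 0.0146, limma), with 1 of 2 probes called, and lost its call without pool pair 2 (0.0659). Between MVK and IDI1 the next kinase, PMVK, was at 0.13 (adjusted p = 0.17, limma) and the decarboxylase MVD at -0.01 (adjusted p = 0.913, limma). The PMVK probe was above the background limit on only 5 of 8 channels labelled TE. It was higher with the ICM label on 8 of 8 arrays, and was at 0.29 with plain subtraction. The MVD probe was above the limit on 8 of 8 channels of each label, and was at -0.06 with plain subtraction. A near-zero ratio, that of MVD, therefore stood between positive ones on the way to farnesyl diphosphate.

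Of the other sterol ring genes 1 of 6 was higher. MSMO1, the oxidase that acts with NSDHL and is named SC4MOL in the annotation, had ratios of 0.70, 1.31, 0.68 and 0.85 (mean 0.89, SE 0.12, adjusted p = 0.0182, limma), and 3 of its 4 probes were called. Pool pair 2 was the highest for MSMO1, as it was for CYP51A1. The call was lost without pool pair 3 (0.0579) or 4 (0.091). HSD17B7, a ketosteroid reductase of the same demethylation steps, was at 0.43 (adjusted p = 0.104), and EBP, a sterol isomerase, at 0.24 (adjusted p = 0.114). The remaining genes of the list are named here after their values were seen. LBR, a sterol reductase that can act on the product of CYP51A1, had ratios of -0.67, -0.23, -0.07 and -0.48 (mean -0.36, SE 0.11, adjusted p = 0.136, limma), below 0 on 8 of 8 arrays. TM7SF2, a reductase of the same step, was at 0.12 (adjusted p = 0.491), and SC5D, the desaturase that works before DHCR7, at 0.15 (adjusted p = 0.279).

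Of the sensing genes 2 of 7 were higher. INSIG2, which holds the SREBP carrier in the endoplasmic reticulum, had ratios of 0.97, 0.83, 0.66 and 0.41 (mean 0.72, SE 0.10, adjusted p = 0.0186, limma), and both its probes were called. SREBF1, which encodes an SREBP, had 1.38, 0.69, 0.84 and 0.41 (mean 0.83, SE 0.16, adjusted p = 0.0474, limma). In both the ratio was highest in pool pair 1 and lowest in pool pair 4. SREBF1 lost its call without pool pair 2, 3 or 4 (adjusted p = 0.129, 0.154 and 0.0801) and INSIG2 without pool pair 2 or 3 (0.0771 and 0.0752). MBTPS2, a protease that releases SREBP from the membrane, was at 0.43 (adjusted p = 0.0563). SREBF2, which encodes another SREBP and is named after its values were seen, was at 0.43 by its brightest probe (adjusted p = 0.0991, limma). That probe was not called, and 1 of the 3 SREBF2 probes was called higher.

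Uptake itself was measured thinly, with 4 of 10 listed genes. LRPAP1, a chaperone of lipoprotein receptors, had ratios of 0.79, 0.98, 0.77 and 0.68 (mean 0.81, SE 0.05, adjusted p = 0.004, limma). SCARB1, a receptor for high-density lipoprotein, was the 1 gene called lower, with -0.49, -0.31, -0.18 and -0.62 (mean -0.40, SE 0.08, adjusted p = 0.0468, limma), and this call was lost without any 1 of the pool pairs (adjusted p = 0.0607 to 0.126). MYLIP, a ubiquitin ligase, was below 0 in all 4 pairs, at -2.48, -0.55, -1.28 and -1.17, but did not pass (mean -1.37, SE 0.33, adjusted p = 0.0765, limma).

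Of the genes of lysosomal release and transport 1 of 8 was higher. NPC1, which exports cholesterol from the lysosome, had ratios of 1.15, 0.68, 0.84 and 0.69 (mean 0.84, SE 0.09, adjusted p = 0.0107, limma) and lost its call without pool pair 3 (0.0545). OSBP, an oxysterol-binding carrier, was at 0.52 (adjusted p = 0.0682) and NPC2, the partner of NPC1, at 0.25 (adjusted p = 0.203). SCP2, named after its values were seen, was at 0.11 by its brightest probe (adjusted p = 0.762, limma), but 3 of its 5 probes were called higher. Of the genes of efflux and ester storage 1 of 12 was higher, with a median of 0. This was SOAT1, which esterifies cholesterol for storage, with 0.91, 0.70, 0.86 and 0.54 (mean 0.75, SE 0.07, adjusted p = 0.00766, limma). The nuclear receptor NR1H2 was at 0.50 (adjusted p = 0.0932) and the sterol hydroxylase CYP27A1 at 0.10 (adjusted p = 0.166). NCEH1, also named after its values were seen, was at -0.18 by its brightest probe (adjusted p = 0.234, limma), with 1 of 4 probes called higher.

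**Figure D5:**
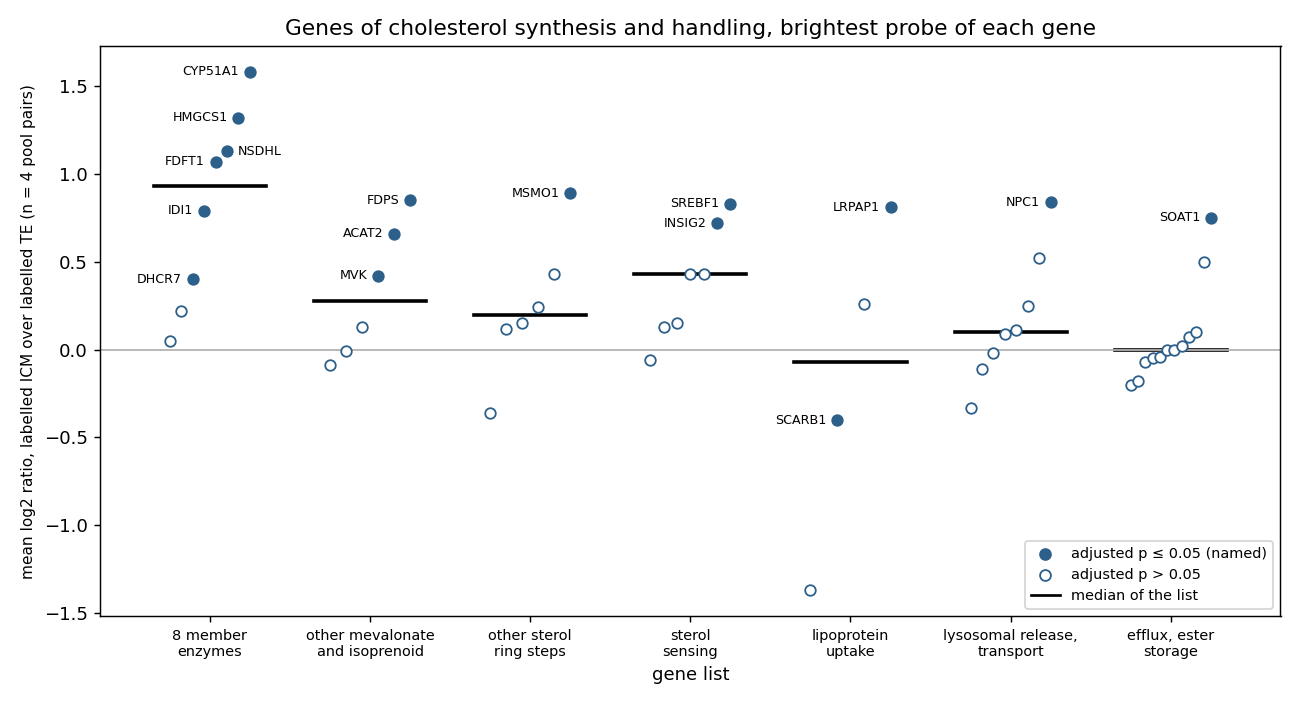
Mean log2 ratio of the RNA labelled ICM over that labelled TE (vertical axis, n = 4 pool pairs) for the brightest probe of each gene, by list (horizontal axis). Filled and named points passed an adjusted p of 0.05, open points did not, and black lines are medians. The 8 enzymes have the highest median (0.93), the other lists lie between -0.07 and 0.43, and SCARB1 is the 1 filled point below 0. The 8 enzymes and the lists were chosen with earlier results of these data known, so the contrast of medians is not independent of that choice.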

How the data were processed

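The authors scanned the slides, and per the file headers the deposited scanner output holds raw spot intensity and local background intensity of both channels. They also deposited a table of normalised log2 ratios (background subtraction, loess and quantile, per the methods), whose scale, centring and direction are not stated. Its columns correlated with log2 of Cy5 over Cy3 of the scanner files (r across probes from 0.576 to 0.868; medians -0.0257 to 0.00451), so it served as an alternative, read in that direction. Intensities were background-corrected by normexp (offset 50), normalised by loess within arrays (control spots at weight 0) and by Aquantile between arrays, and spots marked as ignored (at most 47 an array) were left out afterwards. The log2 ratio of the channel labelled ICM over that labelled TE was averaged over the dye-swapped arrays of a replicate number, and limma 3.58.1 (R 4.3.3; lmFit and eBayes) tested whether the 4 means differed from 0, with Benjamini-Hochberg adjustment over 43794 probes and calls where the adjusted p was 0.05 or less. The number of arrays limits the precision. The numbers pair the arrays: deviations from the mean of an orientation correlated between arrays of one number with r from 0.553 to 0.839, and of different numbers with r from -0.548 to 0.158. Symbols come from the platform annotation, which names 21790 probes and leaves 22004 unnamed. Named are all members with every probe, the up to 3 genes of smallest p in each pathway list, the members' neighbours MVK, PMVK, MVD, FDPS and MSMO1, and 6 markers. The members and lists were chosen with earlier results of these data known. Plain subtraction, an offset of 10, median centring, quantile, no between-array step, a dim-probe filter, the replicate block, single orientations, other thresholds, the mean over a gene's probes and leaving out each pool pair were tried as alternatives. The steps were tested on simulated data. No build of the probe design was found in the sources used here, and no coordinates are given.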

Additional observations from a re-analysis of the deposited data

Results flagged for a closer look

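For LSS, 1 of the 4 pool pairs lay apart from the others. Pool pair 1 was at 0.18 on the log2 scale and the other pairs were at 0.02, 0.00 and 0.00, a gap of 0.882 of the whole range, above Dixon's critical value for 4 values. The probe exceeded the background limit on 2 of 8 channels labelled ICM and on 0 of 8 labelled TE. For DHCR7 pool pair 3 lay apart, at 0.18 against 0.45, 0.46 and 0.50 in the other pairs, a gap of 0.834 of the range. Without pool pair 3 the DHCR7 ratio was 0.47 (adjusted p = 0.0214, limma). The 14 probes measured in all 4 pool pairs were examined in this way, and chance flags about 1 in 20.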

How the results depend on the processing

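The brightest probes of HMGCS1, IDI1, FDFT1, SQLE, CYP51A1, NSDHL and DHCR7 kept a positive ratio under every alternative that was run, and the 4 with a fold of at least 2 (HMGCS1, FDFT1, CYP51A1 and NSDHL) passed under each of them except median centring, where HMGCS1 (adjusted p = 0.0454, limma) passed and FDFT1 (0.0826), CYP51A1 (0.0536) and NSDHL (0.0671) did not. The count of member probes called, 8 as reported, was 2 with median centring in place of loess, 4 on the arrays with ICM in Cy3, 4 at an adjusted p of 0.01, 4 with a fold of at least 2, and 4 to 6 without 1 pool pair. With median centring 333 probes of the whole array were called, against 4711 as reported. With plain subtraction and median centring together, an alternative chosen after seeing the data as was leaving out ignored spots before normexp, 8 member probes were called. With the replicate as a block on all 8 arrays 10 member probes were called, and 10 with a dye term added, in fits that called 18.2% and 16.7% of all probes. The correlation within a replicate number was estimated at 0.0356 without the dye term and at 0.438 with it. Without the dye term the dye-swapped arrays of a pair were therefore counted almost as separate replicates. The count of other pathway genes called, 10 as reported, was 0 with median centring, 4 with plain subtraction and median centring, 15 with plain subtraction, 19 with the authors' table, 20 with the replicate block, 19 with the block and a dye term, 4 at an adjusted p of 0.01, 0 with a fold of at least 2, and 5 to 11 without 1 pool pair. With the mean over a gene's probes it was 14, of which 13 were higher and 1 lower. The count of member probes that differed between dye orientations, 0 as reported, was 4 with plain subtraction and 0 to 2 without 1 pool pair. FDFT1 EMBV3_23196 turned to -0.01 on the arrays with ICM in Cy3, and NSDHL EMBV3_26383, which is below the background limit, to -0.10 with median centring, -0.04 on the arrays with ICM in Cy5 and 0 without pool pair 4 (0 to 0.02 without 1 pool pair). The cause of these changes was not tested. Aquantile leaves log ratios as they are by construction, so leaving it out gave the same counts. Ratios of dim probes were smaller with normexp than with plain subtraction and may be understated, and nothing can be read for probes below the limit.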
